A study of Mus musculus with 8 samples.

Results

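The unfolded protein response and the chaperones of the endoplasmic reticulum (ER) were followed through 32 genes of the mouse liver stromal cell data, out of 31053 genes in the count matrix. The genes were taken by name from a list of the pathway, with no threshold on a measured value. They were grouped by role: 6 genes of the PERK and ATF4 branch, 3 sensors and transcription factors of the IRE1 and ATF6 branches, 9 chaperones and co-chaperones, 6 disulfide isomerases and other folding enzymes, 7 genes of translocation and degradation at the ER, and the secreted ER stress protein Manf.

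The libraries came from 8 C57Bl/6 mice, all labelled male, bought at 6 to 8 weeks of age and fed for 20 to 32 weeks, 4 on a chow control diet and 4 on a diet abbreviated HFHC. The sample titles write this diet out as high fat, high calorie, whereas the series' design text says high cholesterol. Non-parenchymal liver cells were cleared of dead cells, stained for CD45, CD31, CD146 and PDPN, sorted to enrich stromal cells and made into 1 10x Genomics Chromium library per mouse, so all groups share this isolation and differ in diet. HFHC replicate 4 was animal 14 in the labels.

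The ER folds proteins that enter the secretory pathway. When unfolded proteins build up there, 3 membrane sensors respond: IRE1 splices the Xbp1 transcript, ATF6 is cut to release a transcription factor, and PERK slows translation while favouring that of ATF4. Their targets are chaperones, disulfide isomerases, translocation and degradation factors, and, behind ATF4, amino acid synthesis and stress genes. In liver, hepatocytes secrete most plasma proteins, while sinusoidal endothelial cells line the capillaries.

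The libraries were uneven, and cell types were not spread evenly over them. Of 3416 deposited cells, 224 carried a barcode that another library held with more unique molecular identifiers (UMIs) and were left out, which kept 3192. Controls 1 and 2 and HFHC 1, 2 and 3 shared 33 to 65 barcodes per pair, and every other pair shared at most 4. The kept libraries held 47 to 875 cells, 170448 to 2309209 UMIs and a median of 1364 to 5928 UMIs per cell. Control 4, labelled male, had Xist in 67 of 94 cells and a Y-linked transcript in 0, unlike the other 7 libraries, so the diet and class fits and the counts of libraries that do not overlap in LSEC-like cells were also computed without it. The lymphatic endothelial-like sum comes from control 4 alone, and the correlations over sums were not repeated without it.

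Cells were assigned to classes by marker genes, and raw UMIs were summed per library and class where a class had at least 10 cells, giving 25 sums. Levels are in CPM, a gene's UMIs scaled to a common total of UMIs per sum. The classes are called X-like because they rest on markers only, and 653 cells stayed without a class. Liver sinusoidal endothelial-like (LSEC-like) cells numbered 990, with sums in controls 2, 3 and 4 and HFHC 4. Hepatocyte-like barcodes numbered 866, with sums in control 2 (404 barcodes, median 1114.5 UMIs) and HFHC 3 (458 barcodes, median 2179 UMIs), although the sort was meant to enrich stromal cells. A class of 85 barcodes is called haemoglobin-rich after its leading genes, although haemoglobin and other erythroid markers took 129300 CPM of its control 2 sum but 3221 CPM of its HFHC 3 sum, where hepatocyte markers took 34350 and 38740 CPM in the same order. Over its barcodes the median was 2156.7 CPM of erythroid and 47058.8 CPM of hepatocyte markers, and 18 of the 85 lay near the class margin. A class of 37 cells was assigned by the monocyte and dendritic marker list, which had the highest median of any list in it, 3611.0 CPM. Its leading genes were Elane and Mpo, and it is called by those genes.

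The promoters of several members hold a published recognition element of the ATF6 branch, and these stretches are shown because the genes that carry them include most of the chaperones described in the results. RefSeq start sites (build GRCm38.p6, the build called mm10 in the labels) gave a window from 250 bases before to 50 bases after the start for 29 of the 32 members; Atf6, Manf and Hyou1 were not matched. Both strands were searched for the ER stress response element, ERSE, which is CCAAT and CCACG with any 9 bases between them, and for ERSE-II, which is ATTGG and CCACG with any 1 base between them; the motif CCACG is contained in both. In each line the motif is in capitals and reads 5′ to 3′ on the strand given.
Hspa5, chr2:34772020-34772048, + strand: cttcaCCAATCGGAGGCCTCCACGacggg
Hsp90b1, chr10:86705623-86705671, − strand: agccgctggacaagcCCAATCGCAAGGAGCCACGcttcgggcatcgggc
Hsp90b1, chr10:86705518-86705566, + strand: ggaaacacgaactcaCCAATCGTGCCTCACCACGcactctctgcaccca
Calr, chr8:84847060-84847108, + strand: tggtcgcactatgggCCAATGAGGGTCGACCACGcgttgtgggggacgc
Canx, chr11:50325785-50325833, − strand: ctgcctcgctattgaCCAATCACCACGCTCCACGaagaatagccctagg
Pdia6, chr12:17266476-17266524, + strand: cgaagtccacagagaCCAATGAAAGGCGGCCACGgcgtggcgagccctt
Dnajc3, chr14:118937812-118937860, + strand: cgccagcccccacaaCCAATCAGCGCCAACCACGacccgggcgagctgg
Creld2, chr15:88819505-88819553, − strand: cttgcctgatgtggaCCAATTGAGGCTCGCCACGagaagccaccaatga
Syvn1, chr19:6046517-6046565, + strand: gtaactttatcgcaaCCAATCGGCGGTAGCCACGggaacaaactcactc
Herpud1 (ERSE-II), chr8:94386362-94386402, + strand: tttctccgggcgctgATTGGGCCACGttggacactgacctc

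ERSE was present in 8 of the 29 member windows (27.6%) and in 0.137% of the 27025 genes with a window. ERSE-II was present in 2 (6.9%, against 0.0444% of genes), Herpud1 and Dnajb11. The motif CCACG alone was present in 24 members (82.8%) and in 35.5% of genes. Neither TGACGTGG, the element bound by ATF6 and XBP1 in vitro, nor TGATGNAAT, the element of the ATF4 and C/EBP heterodimer, was found in a member window, against 0.714% and 1.08% of genes. A match describes letters, not binding, and binding was not measured.

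Member transcripts were most abundant, as a summed level, in mesothelial-like and LSEC-like cells and least abundant in haemoglobin-rich and hepatocyte-like barcodes. The 32 genes together took 7199 CPM in control 1 and 9453 CPM in HFHC 1 for mesothelial-like cells, which line the liver surface, and 5219 to 7973 CPM in the 4 LSEC-like sums. The Elane and Mpo class, a single sum, stood at 6204 CPM, within the LSEC-like range. Cholangiocyte-like cells, of the bile ducts, followed at 4760 to 5336 CPM, and vascular endothelial-like cells at 4360 to 5284 CPM. Their ranges overlapped each other and that of macrophage-like cells, at 4137 to 5107 CPM. Both also overlapped the LSEC-like range, whose lowest sum, HFHC 4 at 5219 CPM, lay below the highest of each. The lymphatic endothelial-like sum, from control 4 only, was 4497 CPM. Basophil-like cells gave 3366 and 3563 CPM, T and NK-like cells 3225 CPM in 1 sum, and B-like cells 2723 and 2763 CPM. The neutrophil-like sum was 2021 CPM. Haemoglobin-rich barcodes, at 771 and 1725 CPM, and hepatocyte-like barcodes, at 1446 and 1447 CPM, were at the bottom and overlapped.

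**Figure D1:**
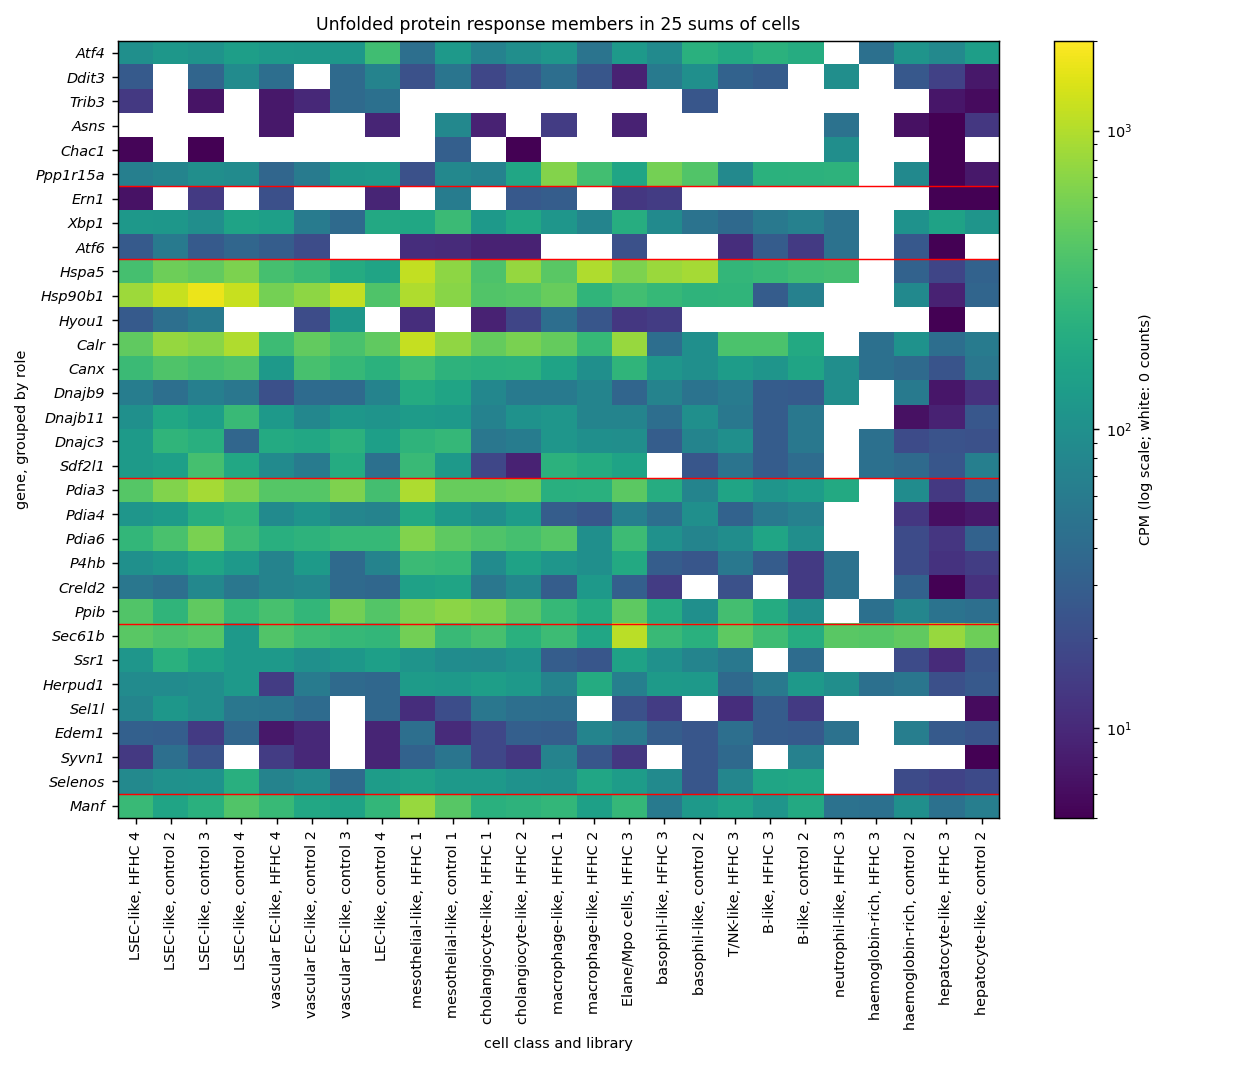
Level of each of the 32 members (rows, grouped by role) in each of the 25 sums of a library and a cell class (columns), in CPM on a logarithmic colour scale, with white for 0 counts. Brighter colours are higher levels. Most chaperone and folding enzyme rows are brighter in the LSEC-like and mesothelial-like columns than in the hepatocyte-like and haemoglobin-rich columns, where they are dark or white. The Sec61b row does not darken there.

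The roles did not follow one order of classes. Chaperones summed to 2390 to 4037 CPM in LSEC-like cells and to 158.8 to 307.8 CPM in hepatocyte-like barcodes, and folding enzymes to 1332 to 2414 CPM and 97.4 to 146.5 CPM. For translocation and degradation genes, the hepatocyte-like range of 636.4 to 865.9 CPM overlapped the LSEC-like range of 686.9 to 981.4 CPM. The PERK and ATF4 branch took 718.5 and 742.6 CPM in basophil-like cells and 398.7 and 829.4 CPM in macrophage-like cells. It took 579.3 CPM in the lymphatic endothelial-like sum, 481.3 CPM in the neutrophil-like sum and 440.1 and 484.2 CPM in B-like cells, all above the lower macrophage-like sum. The LSEC-like range was 193.3 to 325.4 CPM.

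**Figure D2:**
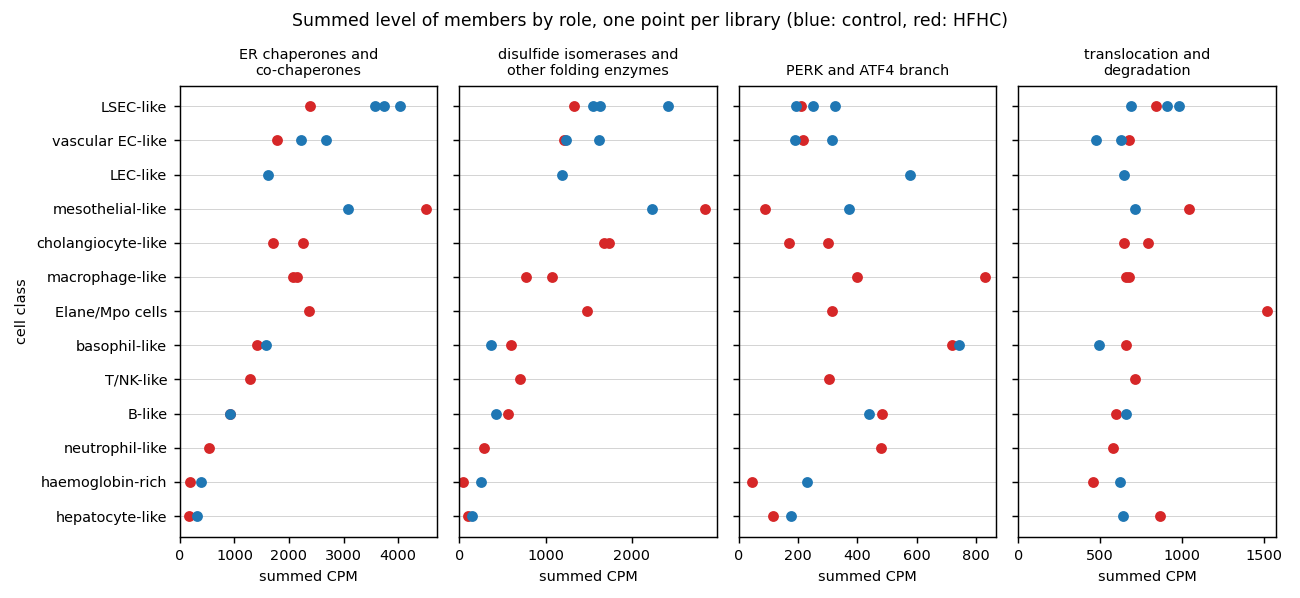
Summed level of the members of 4 roles (panels), in CPM, by cell class, with 1 point per library (blue control, red HFHC). Hepatocyte-like points lie below every LSEC-like point for chaperones and folding enzymes, whereas for translocation and degradation 1 of the 2 (HFHC 3) lies among them, and basophil-like and macrophage-like points lie above the LSEC-like points for the PERK and ATF4 branch.

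Whether cell classes differed in single genes was tested against LSEC-like cells, with edgeR's quasi-likelihood test on all 25 sums, library as a block and p-values adjusted over the 5572 genes tested. A member passed when its adjusted p was under 0.05. The low count filter left 24 of the 32 members: Ddit3, Atf6, Ern1, Trib3, Asns, Chac1, Edem1 and Syvn1 were not tested.

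In hepatocyte-like barcodes transcripts of most tested members were lower than in LSEC-like cells. Of the 24 tested members 16 fell and 1 rose, where 42.1% of all genes passed, 22.5% lower and 19.7% higher. The members' median log2 fold change was -2.27, against 0.00 for all genes. Of the chaperones 7 of 9 fell, of the folding enzymes 5 of 6, and of the translocation and degradation genes 3 of 5. Control 2 is the only library with both classes, so HFHC 3 enters this contrast through its other classes. The same holds for the haemoglobin-rich, basophil-like and B-like contrasts that follow. The LSEC-like sum of control 2 holds 33 cells.

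Hsp90b1 (chr10:86690209-86705509), the ER member of the HSP90 family, stood at 35.5 CPM in control 2 and 8.78 CPM in HFHC 3 in hepatocyte-like barcodes. In LSEC-like cells it stood at 1219, 1692 and 1211 CPM in controls 2, 3 and 4 and at 833.6 CPM in HFHC 4. Both hepatocyte-like sums lay far below all 4 LSEC-like sums, and the edgeR log2 fold change was -4.64 (SE 0.52, adjusted p = 9.32e-17). Hspa5 (chr2:34771970-34777547), the HSP70 chaperone BiP that also holds the sensors inactive, stood at 32.6 and 17.6 CPM against 535.3, 474.1, 614.6 and 339.7 CPM in the same order of LSEC-like sums. The groups did not overlap, and edgeR gave -3.39 (SE 0.52, adjusted p = 1.47e-09). Calr (chr8:84841850-84846934), a lectin chaperone of newly made glycoproteins, stood at 60.7 and 43.9 CPM against 773.2, 696.1, 976.2 and 462.8 CPM. Again no sums overlapped, with an edgeR log2 fold change of -3.00 (SE 0.50, adjusted p = 2.72e-08). Its membrane-bound relative Canx (53.3 and 23.9 CPM against 300.4 to 386.6 CPM) and the co-chaperones Dnajc3 and Dnajb11 also fell.

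Among the folding enzymes, Pdia3 (chr2:121413775-121438687), the disulfide isomerase that works with calreticulin and calnexin, stood at 35.5 and 13.6 CPM against 639.4, 882.4, 614.6 and 407.3 CPM. The sums did not overlap, and edgeR gave a log2 fold change of -3.61 (SE 0.52, adjusted p = 7.97e-11). Pdia6, which acts with BiP, was at 32.6 and 12.8 CPM against 261.2 to 601.5 CPM (edgeR, -3.10, SE 0.55, adjusted p = 1.99e-07). Pdia4 was at 7.4 and 6.38 CPM against 117.7 to 253.1 CPM (edgeR, -3.33, SE 0.78, adjusted p = 1.12e-04). All LSEC-like sums of both lay above both hepatocyte-like sums. P4hb, which is also a subunit of prolyl hydroxylase, and Ppib, an ER prolyl isomerase, fell too, whereas Creld2 did not pass.

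The other members that fell were Ppp1r15a, Sel1l, Selenos, Ssr1 and Hyou1. Ppp1r15a, the stress-induced phosphatase subunit that ends the PERK signal, was at 7.4 and 3.99 CPM against 66.3 to 97.3 CPM, without overlap (edgeR, -3.02, SE 0.86, adjusted p = 0.00174). Sel1l, the adaptor of the degradation ligase, had 4 counts in control 2 and 0 in HFHC 3 against 138 over the LSEC-like sums, and Hyou1 had 1 count over both hepatocyte-like sums, so their fold changes are poorly set by the data.

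Some members were not lower. Sec61b, a subunit of the channel through which proteins enter the ER, stood at 534.3 and 790.1 CPM in hepatocyte-like barcodes against 371.8, 415.2, 126.5 and 429 CPM in LSEC-like cells, and both hepatocyte-like sums lay above every LSEC-like sum. It rose by 1.46 on the log2 scale (edgeR, SE 0.48, adjusted p = 0.00747), and it is named outside the naming rule. This call was lost with the other scaling, with DESeq2, without the low count filter, with a wider gate margin, within the barcode-sharing libraries and without HFHC 4. Xbp1, the IRE1 target, had a log2 fold change of 1.24 (edgeR adjusted p = 0.091; 112.5 and 158 CPM against 97.3 to 162.7 CPM) and Atf4 1.10 (edgeR adjusted p = 0.108; 142.1 and 83 CPM against 98.8 to 144.6 CPM). For both the sums of the classes overlapped. The fold changes of the class fits include edgeR's scaling between sums and the library block, which the CPM do not. Mean CPM in hepatocyte-like and LSEC-like sums was 135.2 and 125.2 for Xbp1, 112.5 and 117.7 for Atf4, and 662.2 and 335.6 for Sec61b.

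Within control 2 alone, where the same animal, library and handling gave both classes, the interval of the hepatocyte-like to LSEC-like ratio lay below 1 for 14 of the 17 members with at least 20 counts and above 1 for 0. Of all such genes, 18.8% lay below and 24.2% above. These are exact 95% intervals for a ratio of CPM and cover counting error only, as there is 1 library. The ratio was 0.0291 for Hsp90b1 (0.0177 to 0.0464), 0.0556 for Pdia3, 0.0608 for Hspa5 (0.0341 to 0.106) and 0.0785 for Calr. For Atf4 it was 1.19 (0.58 to 2.85) and for Sec61b 1.44 (0.96 to 2.25), so neither differed from 1 beyond counting error. Mitochondrial transcripts took 4.38% of hepatocyte-like UMIs in control 2 and 0.0631% in HFHC 3, and 2.54% to 8.43% in LSEC-like sums; the part this has in the difference was not tested.

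**Figure D3:**
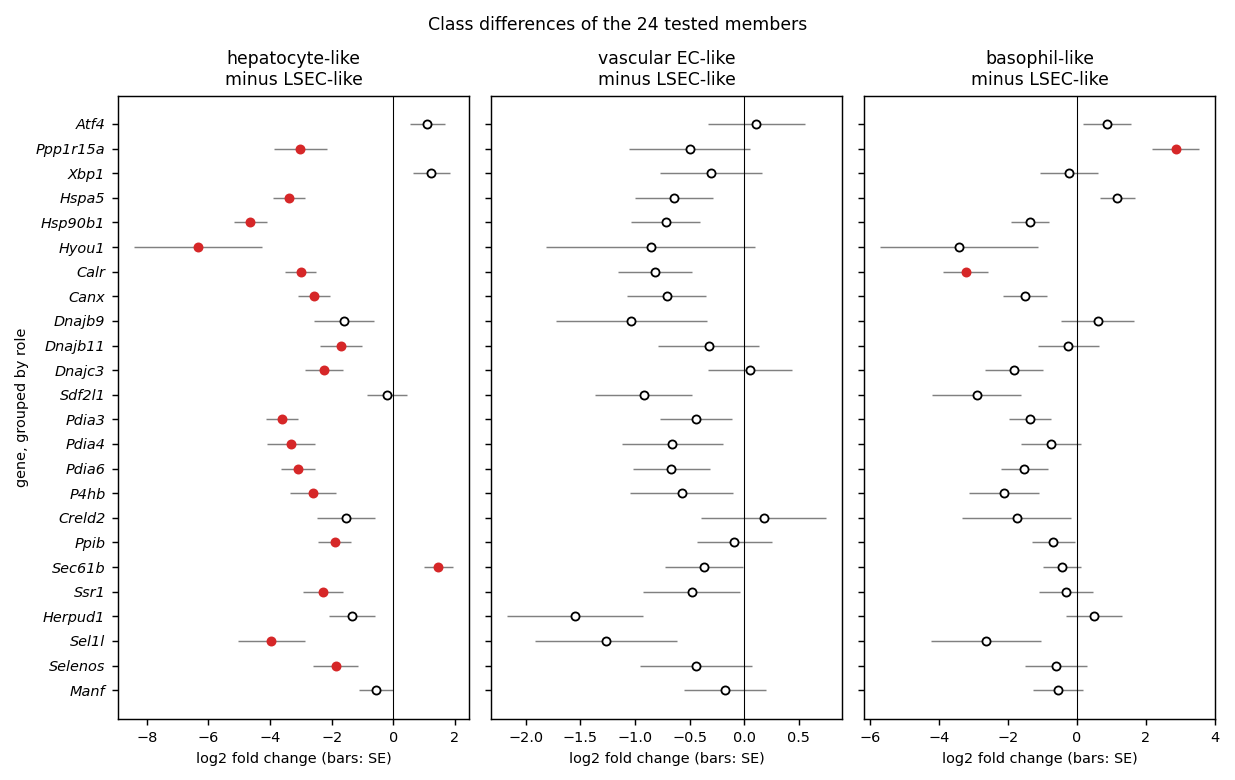
Log2 fold change from LSEC-like cells (edgeR, bars are SE) of the 24 tested members in hepatocyte-like, vascular endothelial-like and basophil-like sums, with filled red points where the adjusted p is under 0.05. Most points of the hepatocyte-like panel lie far to the left of 0, and in the basophil-like panel Ppp1r15a lies to the right and Calr to the left.

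Among related ER genes outside the 32, read against the 22.5% of all genes that were lower and 19.7% that were higher, the shares varied by list. In hepatocyte-like barcodes 5 of 10 tested oligosaccharyltransferase genes fell and 1 rose, with a median of -2.17. Of the other translocon and signal peptidase genes 4 fell and 2 rose of 17, and of other chaperones and folding enzymes 4 fell of 16. Of other degradation genes 2 rose and 2 fell of 9. Of 14 other ATF4 targets 5 rose, among them Atf5, Cebpb and Shmt2, and 1 fell, Slc3a2. The shares of translocon genes and of other chaperones that fell were close to that of all genes, and no list was tested as a whole. Of the 20 handling genes (early response and heat shock genes that rise when tissue is dissociated) 8 fell and 2 rose, with list sums of 2714 and 3136 CPM against 1674 to 3063 CPM in LSEC-like cells; their part in the fall of Ppp1r15a was not tested. The 10 members with ERSE or ERSE-II and the 19 without either overlapped in their response: 7 of 9 tested fell in the first set (median -2.57), and 8 of 13 fell and 1 rose in the second (median -1.89).

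In haemoglobin-rich barcodes, which hold the hepatocyte markers given earlier, the fit called 12 of 24 tested members lower and 0 higher (21.3% of genes passed, 10.8% lower) and a median of -2.53 against -0.21 for all genes. Without the low count filter, 9 fell. Hspa5 was at 32.8 CPM in control 2 and had 0 counts in HFHC 3, against 339.7 to 614.6 CPM in LSEC-like cells (edgeR, -3.63, SE 0.71, adjusted p = 8.62e-06). Hsp90b1 was at 85.3 CPM and 0 counts (edgeR, -3.47, SE 0.58, adjusted p = 1.62e-07). The HFHC 3 sum holds 11 barcodes, and the floor of 3 counts is above most levels there. Pdia6, Canx, Pdia4, Ssr1, Calr, Pdia3, Dnajc3, P4hb, Dnajb11 (1 count) and Sel1l (0 counts) also fell; Sec61b, at 465.6 and 408.3 CPM, did not pass. The part of the hepatocyte markers in these values was not tested.

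Basophil-like cells combined high Ppp1r15a with low Calr, 1 member higher and 1 lower, where 13.4% of genes passed (5.96% higher, 7.48% lower). Ppp1r15a stood at 396 and 571.9 CPM in control 2 and HFHC 3 against 66.3 to 97.3 CPM in LSEC-like cells, and edgeR gave 2.86 (SE 0.69, adjusted p = 6.64e-04). Calr stood at 99.0 and 44.0 CPM against 462.8 to 976.2 CPM, and edgeR gave -3.23 (SE 0.66, adjusted p = 3.14e-05). Neither gene had overlapping sums, but only control 2 holds both classes, and the other LSEC-like sums come from other mice. Hspa5, at 891.1 and 821.2 CPM, lay above all LSEC-like sums but did not pass (edgeR, 1.17, adjusted p = 0.108). The number of members called lower ranged from 1 to 8 with the processing. Of the 20 handling genes 13 rose in these cells, to 30540 and 39240 CPM against 1674 to 3063 CPM in LSEC-like cells. Their part in the Ppp1r15a level was not tested. Within control 2, the ratio of basophil-like to LSEC-like cells lay above 1 for 2 of 10 members (25.8% of genes), Ppp1r15a at 5.33 (1.86 to 18.6) and Hspa5 at 1.67 (1.02 to 2.72). It lay below 1 for 5 (37.5%): Hsp90b1, Pdia3, Pdia6, Calr and Canx, from 0.116 to 0.256.

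Macrophage-like cells, with no fit against LSEC-like cells, also held much Ppp1r15a, 654.8 CPM in HFHC 1 and 324 CPM in HFHC 2. Within HFHC 1 its ratio to cholangiocyte-like cells was 9.18 (4.28 to 22.6), the 1 member of 13 above 1 (15.8% of genes). Pdia3, at 0.437, and Ppib, at 0.45, were below 1 (29.7% of genes). Within HFHC 2, Pdia3, Pdia6, Calr and Ppib lay below 1, 4 of 19 members (19.6% of genes), and 0 lay above (8.81%). The macrophage-like sum of HFHC 2 holds 17 cells and 40126 UMIs. Handling genes took 8483 and 10090 CPM of the macrophage-like sums in HFHC 1 and HFHC 2. They took 6061 and 10560 CPM of the cholangiocyte-like sums, and 1674 to 3063 CPM in LSEC-like cells. Their part in the Ppp1r15a level was not tested.

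In B-like cells 2 members fell and 0 rose (13.4% of genes passed, 4.9% higher and 8.54% lower). Hsp90b1 was at 68.8 and 28.5 CPM in control 2 and HFHC 3, below every LSEC-like sum (edgeR, -3.95, SE 0.66, adjusted p = 1.76e-07), and Pdia3 was at 137.5 and 113.9 CPM (edgeR, -1.81, SE 0.59, adjusted p = 0.0208). Pdia3 lost its call without the low count filter (edgeR adjusted p = 0.15), within the barcode-sharing libraries (edgeR adjusted p = 0.0631) and in cells with at least 2000 UMIs (edgeR adjusted p = 0.0605). The handling genes also rose in B-like cells, 10 of 20, to 9940 and 11100 CPM; their part in the difference was not tested. Within control 2, the ratio to LSEC-like cells lay below 1 for 7 of 13 members (32.5% of genes), among them Hsp90b1 at 0.0564 (0.0178 to 0.137), and above 1 for 1, Ppp1r15a at 3.15 (1.11 to 10.9; 26.6% of genes). Neither in B-like nor in basophil-like cells did a member's HFHC 3 to control 2 ratio leave 1: the intervals of all 5 and all 4 members with at least 20 counts included it, where 10.3% and 9.52% of genes lay above and 7.17% and 6.3% below.

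The endothelial classes stood closer together. The vascular endothelial-like sums also held LSEC markers, at 6194, 6783 and 4469 CPM in control 2, control 3 and HFHC 4. Their vascular markers took 4804, 3549 and 4069 CPM in the same order. The part of these LSEC markers in the closeness was not tested. Between vascular endothelial-like and LSEC-like cells no member passed (4.49% of genes did, 2.66% higher and 1.83% lower); 5 had an unadjusted p under 0.05, and 21 of 24 had a negative log2 fold change, with a median of -0.54. The median of all genes was itself -0.19 without HFHC 2, -0.18 without control 1 and -0.2 without control 4, and 0.0 without HFHC 3. Without HFHC 4 it was -0.2, beside -0.88 for the members. The scaling by DESeq2's size factors called 2 members lower. The smallest p belonged to Herpud1, a membrane protein of ER-associated degradation, with -1.55 (SE 0.62, edgeR adjusted p = 0.186). Within each of the 3 libraries that hold both classes, the ratio for Hsp90b1 was below 1: 0.595 (0.427 to 0.826) in control 2, 0.676 (0.451 to 0.976) in control 3 and 0.69 (0.539 to 0.873) in HFHC 4. The ratio for Calr was also below 1 in each, at 0.612, 0.51 and 0.66. In all, 3 of 15 members in control 2 (11.9% of genes), 4 of 26 in control 3 (2.66% of genes) and 4 of 27 in HFHC 4 (7.57% of genes) had intervals below 1. None had one above 1, against 13.2%, 4.46% and 9.66% of genes. Hspa5 was among those below in control 2, at 0.546 (0.323 to 0.915), and control 3, at 0.416 (0.134 to 0.98), and not in HFHC 4. In control 4, lymphatic endothelial-like cells had intervals below 1 against LSEC-like cells for 6 of 15 members (18.8% of genes), among them Hspa5 at 0.269 and Hsp90b1 at 0.319, and above 1 for Atf4, at 2.23 (21.7% of genes).

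The diet comparison in LSEC-like cells set HFHC 4 against controls 2, 3 and 4, and no member passed. Of 6815 genes tested, 11 rose (0.161%) and 2 fell (0.0293%), 0.191% in all, and 28 members were tested (not Ern1, Trib3, Asns or Chac1), with 0 at an unadjusted p under 0.05. The edgeR fit assumes that the lone HFHC library varies like the controls. DESeq2, the other scaling and the fit without a filter each called 0 members as well.

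Most member levels were nonetheless lower in HFHC 4. Hsp90b1 was at 1219, 1692 and 1211 CPM in the controls and at 833.6 CPM in HFHC 4 (edgeR, -0.54, SE 0.42, adjusted p = 1.00). Pdia3 was at 639.4, 882.4 and 614.6 CPM against 407.3 CPM (edgeR, -0.64, SE 0.43, adjusted p = 1.00). Calr was at 773.2, 696.1 and 976.2 CPM against 462.8 CPM (edgeR, -0.58, SE 0.43, adjusted p = 1.00). In these 3 genes HFHC 4 lay below every control, by less than the fit could tell from the spread between mice. Sdf2l1, a partner of BiP, was at 148.7, 342.6 and 180.8 CPM against 129.9 CPM (edgeR, -0.74, SE 0.51, adjusted p = 1.00). Pdia6 was at 356.9, 601.5 and 307.3 CPM against 261.2 CPM (edgeR, -0.58, SE 0.46, adjusted p = 1.00). Control 3 was the highest in both, and HFHC 4 was the lowest. Without control 3 the log2 fold changes were -0.22 for Sdf2l1 and -0.24 for Pdia6. Dnajb11, a cofactor of BiP, was at 178.4, 143.9 and 289.2 CPM against 101.5 CPM (edgeR, -0.68, SE 0.53, adjusted p = 1.00), and Pdia4 was at 133.8, 213.8 and 253.1 CPM against 117.7 CPM (edgeR, -0.58, SE 0.52, adjusted p = 1.00). Sec61b went the other way, at 371.8, 415.2 and 126.5 CPM against 429 CPM (edgeR, 0.58, SE 0.44, adjusted p = 1.00), and its low value was in control 4. Without control 4 the log2 fold change was 0.26 for Sec61b and -0.45 for Dnajb11, which was -1.06 without control 3.

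Over the list, 21 of the 28 tested members had a negative log2 fold change and 7 a positive one, with a median of -0.31 against 0.02 for all genes. By role the median was -0.52 for chaperones (8 of 9 negative), -0.46 for folding enzymes (5 of 6 negative), -0.26 for the 3 tested genes of the PERK and ATF4 branch and -0.12 for translocation and degradation (4 of 7 negative). HFHC 4 lay below all 3 controls for 15 of the 28 members with at least 20 counts, against 21.0% of genes, and above them for 1, Sec61b, against 16.4%. Without control 4 these counts were 19 below (35.1% of genes) and 4 above (24.7%). Leaving out any control in turn kept the members' median between -0.33 and -0.30 with 0 members passing. Other ER lists were nearer to 0, with medians of 0.04 for other chaperones and folding enzymes, 0.03 for other translocon genes, 0.14 for oligosaccharyltransferase and -0.22 for other degradation genes. The LSEC markers themselves were lower in HFHC 4, at 15500 CPM, than in the controls, at 20300, 23960 and 22450 CPM. Handling genes had a median log2 fold change of 0.36 (19 tested, 0 passed) and summed to 3063, 1674 and 2404 CPM in the controls and 2501 CPM in HFHC 4, and hepatocyte markers at 3554, 205.5 and 506.2 CPM against 169.2 CPM. Their part in the member levels was not tested.

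**Figure D4:**
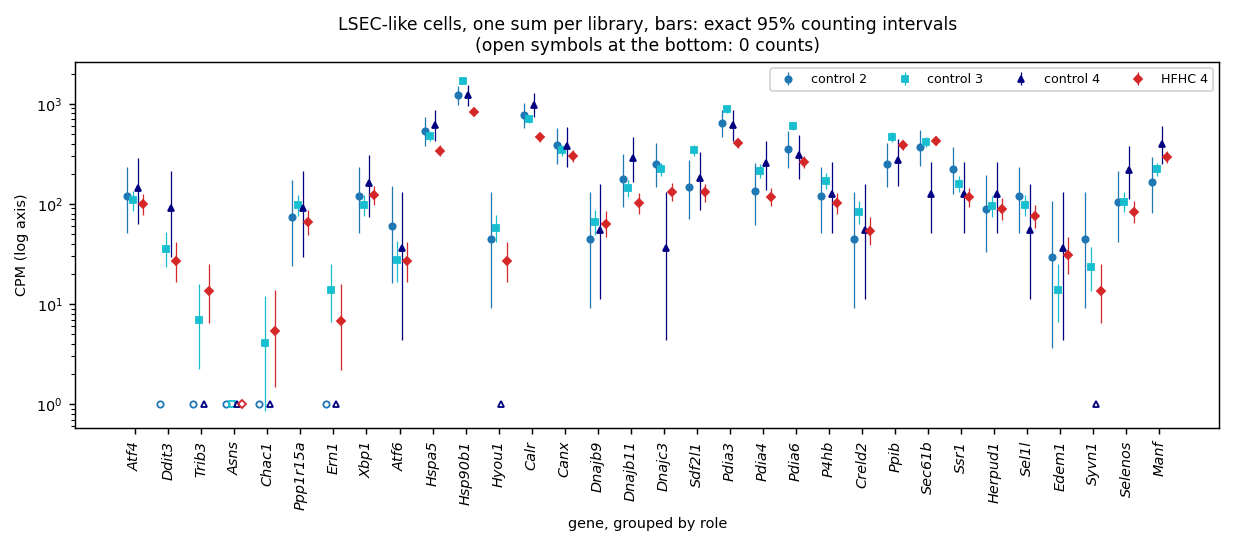
Level of each member in LSEC-like cells, in CPM on a logarithmic axis, for controls 2, 3 and 4 and HFHC 4, with exact 95% counting intervals and open symbols at the bottom for 0 counts. HFHC 4 is the lowest of the 4 libraries for 15 of the 28 members with at least 20 counts, including Hspa5, Hsp90b1 and Calr.

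The 2 libraries with most LSEC-like cells, control 3 (494 cells, 729801 UMIs) and HFHC 4 (426 cells, 738963 UMIs), gave the narrowest counting intervals. The HFHC 4 to control 3 ratio lay below 1 for 15 of 28 members (13.7% of genes) and above 1 for 2 (6.51% of genes). It was 0.493 (0.447 to 0.543) for Hsp90b1, 0.379 for Sdf2l1, 0.434 for Pdia6, 0.462 for Pdia3, 0.665 for Calr and 0.716 for Hspa5. The exceptions against control 3 were Manf, a chaperone that leaves the cell under ER stress, at 1.32 (1.07 to 1.62), and Edem1 at 2.27 (1.04 to 5.35). Edem1 helps to send misfolded glycoproteins to degradation. For both genes HFHC 4 lay within the range of the controls. Manf was at 163.6 to 397.7 CPM in controls against 292.3 CPM in HFHC 4, and Edem1 at 13.7 to 36.15 CPM against 31.12 CPM. The median log2 ratio was -0.46 for members and -0.13 for genes. These ratios compare 1 mouse with 1 mouse.

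In vascular endothelial-like cells HFHC 4 was compared with controls 2 and 3, and no member of the 17 tested passed (0.211% of 2371 genes did). Only Canx had an unadjusted p under 0.05, at 352.5 and 276 CPM against 123.7 CPM (edgeR, -1.39, SE 0.65, adjusted p = 0.997). Xbp1 was at 60.4 and 39.4 CPM against 145.6 CPM (edgeR, 1.37, SE 0.90, adjusted p = 0.997). Manf had a log2 fold change of 0.69 and Hsp90b1 of -0.61, both with an edgeR adjusted p of 0.997. Of the 18 members with at least 20 counts, HFHC 4 lay above both controls for 7 (32.0% of genes) and below both for 5 (24.7%). Whether the diet difference itself differed between vascular endothelial-like and LSEC-like cells was tested as an interaction, and no member passed; Hspa5 had the smallest p (edgeR, 0.98, SE 0.52, adjusted p = 1). Against control 3 alone, the interval of the ratio lay below 1 for 1 of 14 members, Hsp90b1 at 0.503 (4.99% of genes), and above 1 for 0 (4.34%).

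Hepatocyte-like barcodes had 1 library per diet, so there was no test. The HFHC 3 to control 2 ratio lay below 1 for 8 of 20 members (6.76% of genes) and above 1 for 2 (18.7%). Those below were Hsp90b1 at 0.247, Dnajb11 at 0.349, Sdf2l1 at 0.372, Pdia3 at 0.382, Pdia6 at 0.392, Ssr1 at 0.438, Canx at 0.449 and Atf4 at 0.584. Sec61b at 1.48 and Xbp1 at 1.41 were above. LSEC markers took 94.72 CPM of the control 2 sum and 4.788 CPM of the HFHC 3 sum. Median depth and mitochondrial share also differed between these libraries, as given earlier. The part of these differences in the ratios was not tested.

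Mesothelial-like cells also had 1 library per diet and differed the other way. Hspa5 was at 724 CPM in control 1 and 1151 CPM in HFHC 1, a ratio of 1.59 (1.16 to 2.18). The ratio lay above 1 for 7 of 19 members (10.1% of genes) and below 1 for 0 (8.67%); besides Hspa5 these were Sdf2l1 at 2.32, Pdia3 at 1.92, Sec61b at 1.91, Manf at 1.85, Calr at 1.59 and Hsp90b1 at 1.41. The sums rest on 21 and 12 cells of 1 mouse each, and they differed in markers of other cell types. LSEC markers took 5130 CPM in control 1 and 376.3 CPM in HFHC 1, fibroblast and stellate markers 5348 and 4948 CPM, and mesothelial markers 3879 and 5379 CPM. The part of these differences in the member ratios was not tested. Within HFHC 1, mesothelial-like cells exceeded cholangiocyte-like cells for 12 of 20 members (17.6% of genes), with Hspa5 at 3.08 and Manf at 3.53 times the level, and fell short for 0 (19.3%). Within HFHC 3, the Elane and Mpo class likewise exceeded T and NK-like cells for 12 of 21 members (25.4% of genes) and fell short for 0 (13.8%). There Sec61b stood at 1065 against 448.1 CPM, a ratio of 2.38 (1.84 to 3.1), and Xbp1 at 210.5 against 38.7 CPM, a ratio of 5.43 (2.44 to 14.2).

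Over all cells of a library, the 4 HFHC mice were compared with the 4 control mice, and no gene passed (0.0% of 6666 genes). Of the members 26 were tested, 0 had an unadjusted p under 0.05 in edgeR, and 21 had a negative log2 fold change (median -0.21 against 0.01 for all genes). This median ranged from -0.46 without HFHC 1 to -0.03 without control 3. In such sums, fewer cells of a type and less RNA per cell cannot be told apart. Atf4, the transcription factor of the PERK branch, had the smallest p: it was at 123.2, 124.4, 112.4 and 229.3 CPM in controls 1 to 4 and at 78.9, 97.7, 96.6 and 101 CPM in HFHC 1 to 4. Every HFHC library lay below every control library, which held for 1 of the 32 members and for 0.202% of genes with at least 20 counts (0 members and 0.705% of genes lay above). The edgeR log2 fold change was -0.63 (SE 0.37, adjusted p = 1.00). It ranged from -0.77 to -0.44 when any 1 library was left out. Its target Ddit3, known as CHOP, was at 14.1 to 85.5 CPM in controls and 23.0 to 36.2 CPM in HFHC libraries, which overlapped (edgeR, -0.60, SE 0.47, adjusted p = 1.00). Hsp90b1, from 261.3 to 1617 CPM in controls and from 108.7 to 762.8 CPM in HFHC libraries, overlapped too (edgeR, -0.64, SE 0.61, adjusted p = 1.00). Dnajc3 (-0.65), Sdf2l1 (-0.72), Creld2 (-0.50), Dnajb11 (-0.39) and Ppp1r15a (0.47) completed the 8 smallest p, each with an edgeR adjusted p of 1.00. Several of these rested on single libraries: without control 3 Hsp90b1 was at -0.02 and Sdf2l1 at -0.09, without control 1 Creld2 was at -0.10, without HFHC 3 Dnajb11 was at -0.09, without control 4 Ddit3 was at -0.24, and without HFHC 1 Ppp1r15a was at 0.12.

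The rarest members gave little information. Asns, the asparagine synthetase that ATF4 induces, had 0 counts in all 4 LSEC-like sums, and Chac1, Trib3 and Ern1, the IRE1 gene, stayed under 15 CPM in LSEC-like cells, too low for a test. Chac1 is a glutathione-degrading enzyme and Trib3 a pseudokinase, both ATF4 targets.

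Likeness of pattern over the 25 sums was measured by rank correlation, within and between roles. The highest Spearman correlations were 0.915 for Dnajb11 with Hsp90b1, 0.898 for Pdia6 with Calr, and 0.896 for Hsp90b1 with both Canx and Pdia3. For Hspa5 the closest member was Herpud1, at 0.785, and the least like were Sec61b, at -0.339, and Trib3, at -0.296. The sums share libraries and differ in depth, so these values describe likeness only.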

How the data were processed

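Values are raw UMI counts per gene and cell, deposited as 1 matrix; per the submitters' processing notes the tools were Cell Ranger 3.0.1 and Seurat, with build mm10. The authors' settings, cell filter and doublet treatment are not known from these sources; no doublet caller was run. Of each shared barcode only the copy with most UMIs stayed. A cell joined a class when its mean standardised marker score led the next by at least 0.2 with at least 2 markers detected; this margin was set after cell counts were seen. Sums of at least 10 cells entered robust quasi-likelihood fits in edgeR 4.0.16, after TMM scaling and filterByExpr, with Benjamini-Hochberg adjustment over all genes tested; the class model had 19 coefficients and 6 residual degrees of freedom. DESeq2 1.42.0 was an alternative. Fits were also run on simulated counts with known changes, in which all sums had the same base profile and the same spread. Such counts lack the differences between libraries and classes seen here, so they do not show how the fits hold on these data. Ratios of single libraries carry exact conditional intervals in scipy 1.17.1. Members and lists were chosen with earlier results of these data known. Full statistics went to members past the threshold (at most 8 per class, by fold, at 50 CPM or more) and to the 8 smallest p per diet comparison. Near the class margin lay 46 LSEC-like, 75 hepatocyte-like and 18 haemoglobin-rich barcodes.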

Additional observations from a re-analysis of the deposited data

Results flagged for a closer look

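In 7 of 64 groups of 4 libraries, 1 library stood further from the rest than a test for a single outlying value allows. The groups are the 32 members in each diet, all cells summed. Chance gives about 1 in 20 groups for normally distributed values. The groups here share the same libraries, which differ in depth and makeup, so this rate is only a rough guide. Among controls, Atf4 was at 229.3 CPM in control 4 against 112.4 to 124.4 CPM in the others. Chac1 was at 23.47 CPM in control 1 against 0 to 3.588 CPM. That Chac1 value rests on 4 counts, with a counting interval of 6.394 to 60.09 CPM. Control 3, in which LSEC-like cells are most of the library, was apart in 3 genes: Atf6 at 25.12 CPM against 11.66 to 13.51 CPM, Hyou1 at 57.42 CPM against 0 to 7.771 CPM, and Sdf2l1 at 330.1 CPM against 86.71 to 99.74 CPM. Among HFHC libraries, HFHC 3, which holds 458 hepatocyte-like barcodes of 857, was low in Dnajb11, at 23.82 CPM against 100.8 to 108.5 CPM, and in Pdia4, at 19.92 CPM against 108.5 to 126.1 CPM. The part of cell composition in these values was not tested.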

How the results depend on the processing

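The diet comparisons called 0 members in either direction under every setting that could be run. With the replicate number of the labels as a replicate block, the all-cells comparison also called 0 members. Same-numbered samples correlated between -0.47 and 0.66 in their deviations, and 1 of 4 control samples correlated best with its own number. The libraries differ in cell makeup, which enters these correlations, so they cannot show whether the numbers pair samples. Log2 fold changes turned sign in vascular endothelial-like cells for Calr (0.24 with at least 5 cells per sum) and over all cells for Ppp1r15a (-0.74 within the libraries outside the barcode-sharing set). For hepatocyte-like barcodes the count of lower members was 13 to 21 (15 to 16 leaving out a library), and for haemoglobin-rich barcodes 9 to 15 (11 to 12). Higher members in hepatocyte-like barcodes were 0 with size factors, DESeq2, no filter, the wider margin or the barcode-sharing libraries, 2 with at least 2000 UMIs per cell (a setting chosen after seeing the data), at least 20 cells or no library block, 3 with cluster classes, and 0 to 1 leaving out a library (0 without HFHC 4). In B-like cells the lower members were 4 with size factors or cluster classes, 1 with no filter or within the barcode-sharing libraries, 5 with barcode copies kept, 6 with at least 5 cells and 7 with no library block; the higher members were 4 with cluster classes and 1 with barcode copies, at least 5 cells or no block. In basophil-like cells the higher members were 2 with size factors, at least 500 genes per cell, barcode copies, at least 2000 UMIs or cluster classes; the lower members were 4 with size factors or cluster classes, 5 with barcode copies, 6 with at least 5 cells, 8 with no block, and 1 to 5 leaving out a library (4 without HFHC 2 or control 1, 3 without HFHC 4 or control 3, 5 without control 4). In vascular endothelial-like cells the lower members were 2 with size factors or at least 5 cells, 1 with cluster classes and 0 to 2 leaving out a library (2 without HFHC 2, HFHC 3, control 1 or control 4). The causes of these moves were not tested. In hepatocyte-like barcodes size factors shifted the median of all genes to -0.53 (members -3.02) and DESeq2 to -1.14 (members -3.11). Not run for want of sums or residual degrees of freedom were the LSEC-like diet fit without HFHC 4 or within the barcode-sharing libraries, the vascular diet fit without HFHC 4, control 2 or control 3, with at least 20 cells, with at least 2000 UMIs or within either set of libraries, and any hepatocyte-like diet fit. Depth limits the rare members most.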
